A study of Mus musculus with 4 samples.

Results

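A set of 10 genes of the MHC class II presentation pathway was followed by symbol in the spatial transcriptomes of 4 MC38 tumor sections: H2-Aa, H2-Ab1, H2-Eb1, Cd74, H2-DMa, H2-DMb1, H2-DMb2, H2-Oa, H2-Ob and Ciita. All 10 were found among the 32285 genes of the count tables, and all 10 passed the filter on low counts in each test below. MC38 cells come from a colon carcinoma of a C57BL/6 mouse, and they had been placed under the skin of female F1 hosts aged 8 to 12 weeks. The hosts were C57BL/6J x CC075/UncJ (CC075F1, 2 sections), a strain the study calls a responder to PD-1 blockade, and C57BL/6J x CC080/TauUncJ (CC080F1, 2 sections), which it calls a non-responder. CC strains are recombinant inbred lines of the Collaborative Cross, and every host therefore carried a C57BL/6J haplotype beside its CC haplotype. All hosts had been given 200 µg of the isotype control antibody 2A3 once, at tumor volumes of 75 to 110 mm3, and tumors were frozen 48 hours later. No host in these files received anti-PD-1.

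MHC class II molecules show peptides from the endocytic pathway to CD4 T cells. They are pairs of an α and a β chain. H2-Aa and H2-Ab1 encode the chains of I-A, and H2-Eb1 encodes the β chain of I-E. The invariant chain, Cd74, escorts new pairs to the endosome and blocks their groove until H2-DM (H2-DMa with H2-DMb1 or H2-DMb2) exchanges its remnant for peptide. H2-DO (H2-Oa with H2-Ob) restrains H2-DM and is best known from B cells. Ciita is the coactivator that switches the whole group on, constitutively in dendritic cells and B cells and after IFN-γ in macrophages and many other cells. C57BL/6 mice carry an H2-Ea gene that makes no protein, and H2-Ea was not analysed here.

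Of the members 8, those named H2, lie on chromosome 17 (GRCm38): H2-Oa (chr17:34092340-34095234), H2-DMa (chr17:34119541-34139101), H2-DMb2 (chr17:34143307-34151555), H2-DMb1 (chr17:34153072-34160230), H2-Ob (chr17:34238903-34254414), H2-Ab1 (chr17:34257689-34269419), H2-Aa (chr17:34282744-34287823, minus strand) and H2-Eb1 (chr17:34305867-34316674). Ciita lies on chromosome 16 (chr16:10480059-10528418). Class II promoters are known for an X box and a Y box upstream of the start, where the complex that recruits CIITA assembles. The stretch that holds these elements is shown for the 6 genes in which a Y box was found. All are RefSeq sequences of GRCm38.p6, read 5′ to 3′ on the strand of the gene, 57 bases each, with the X box (ANNAACNNATGATG) and Y box (TGATTGG) in capitals where the letters matched.

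H2-Eb1: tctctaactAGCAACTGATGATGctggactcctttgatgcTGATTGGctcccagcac
H2-DMb1: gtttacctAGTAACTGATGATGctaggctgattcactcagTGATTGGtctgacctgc
H2-DMb2: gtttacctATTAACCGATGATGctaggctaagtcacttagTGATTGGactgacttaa
H2-Ob: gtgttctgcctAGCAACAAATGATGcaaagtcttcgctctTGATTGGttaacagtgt
H2-Aa: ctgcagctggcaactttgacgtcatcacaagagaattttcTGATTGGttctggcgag
H2-Oa: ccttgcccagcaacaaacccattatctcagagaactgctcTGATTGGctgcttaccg

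The stretches lie at chr17:34305766-34305822 (H2-Eb1, plus strand), chr17:34153088-34153144 (H2-DMb1, plus), chr17:34145117-34145173 (H2-DMb2, plus), chr17:34238806-34238862 (H2-Ob, plus), chr17:34287857-34287913 (H2-Aa, minus) and chr17:34092294-34092350 (H2-Oa, plus). In the first 4 both elements matched, with 17, 18, 18 and 15 bases between them. The Y box began 45 to 92 bases before the RefSeq start in all 6. Neither pattern was found upstream of the 2 RefSeq starts of H2-DMa, and H2-Ab1, Ciita and Cd74 were not examined. Both strands of the 250 bases before each start were searched in 32851 promoters of 27025 genes. The X pattern was present in 12 of them (0.0365%), the Y pattern in 2375 (7.23%) and both in 4 (0.0122%), and these 4 are the members shown first. The X pattern is the consensus of the 14 bases that end in ATGATG in those same 4 promoters, chosen after they had been seen, so its rarity elsewhere is a description. H2-Aa and H2-Oa hold related letters at the place of the X box that the pattern did not match.

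The sections held 2710 to 3276 spots under tissue, 82594649 to 146460975 UMIs (captured RNA molecules) and a median of 31139 to 41740 UMIs per spot. CC075F1 replicate 2 was the deepest and the only section with spots in which skin, muscle or fat markers passed 1% of UMIs (22 spots). Summed UMIs of the carcinoma markers Krt8, Krt18 and Epcam were near 0 in every section (0.205 to 0.816 CPM, UMIs scaled by the total of the section), so the tumor label was not shown by these genes. A spot covers several cells, and in such samples fewer cells of a type and less RNA per cell cannot be told apart. The sources do not give library batches, nor whether the sections shared a slide, so a batch that followed the strain and the strain itself cannot be told apart.

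H2-Aa, H2-Ab1, H2-Eb1 and Cd74, called the core genes below, were several times more abundant in both CC075F1 sections than in either CC080F1 section, although H2-Eb1 alone passed the test over all genes. H2-Aa, the I-A α chain, was measured at 683 and 462 CPM in CC075F1 and at 111 and 134 CPM in CC080F1, giving here and below replicate 1 before replicate 2. H2-Ab1, the I-A β chain, was measured at 784 and 486 CPM in CC075F1 and at 117 and 171 CPM in CC080F1. The ranges of the strains did not overlap for either gene, and within CC075F1 replicate 1 was the higher section. The strain means differed 4.67-fold for H2-Aa and 4.41-fold for H2-Ab1. In the fit over all genes (edgeR quasi-likelihood on UMIs summed per section, TMM scaling), the log2 fold changes were 2.50 (SE 0.295, adjusted p = 0.0539) and 2.40 (SE 0.337, adjusted p = 0.0778), and neither passed 0.05.

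H2-Eb1, the I-E β chain, differed most. Its level was 714 and 423 CPM in CC075F1 and 44.7 and 63.1 CPM in CC080F1, that is 568 ± 206 against 53.9 ± 12.99 CPM (SD, n = 2 each), a 10.5-fold difference of means. Every CC075F1 section lay above every CC080F1 section. With a log2 fold change of 3.66 (SE 0.341, edgeR adjusted p = 0.0263) it was the only member past the threshold. In the same fit 14 of 15572 genes passed (0.0899%), 9 of them higher in CC075F1 (0.0578%). H2-Eb1 passed in all 11 alternative settings, in which its log2 fold change ran from 3.38 to 4.01.

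**Figure D1:**
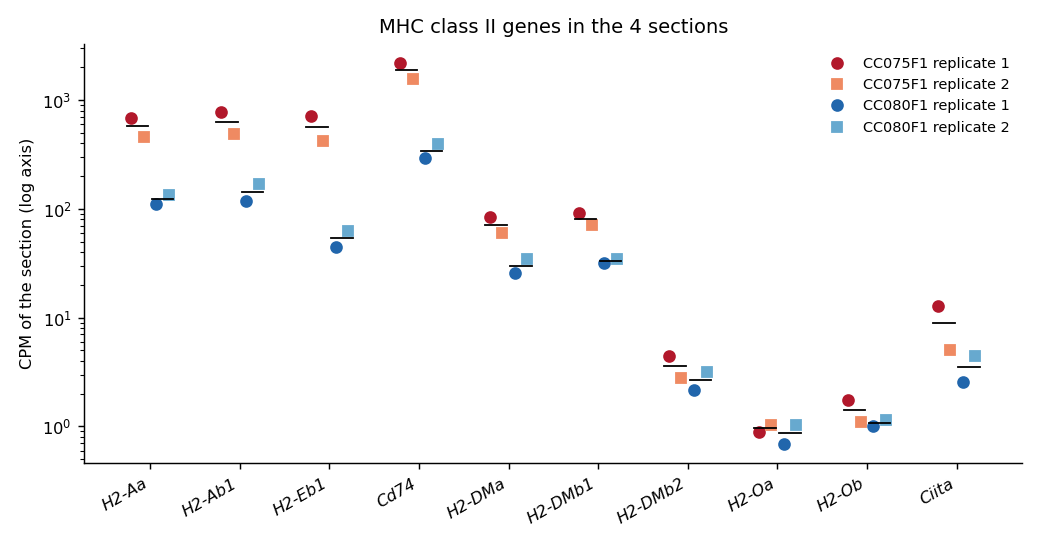
Level of the 10 class II genes in each section, in CPM on a log axis; circles and squares are replicates 1 and 2 of CC075F1 (reds) and CC080F1 (blues), and black bars are strain means. The 4 core genes and H2-DMa, H2-DMb1 and Ciita do not overlap between strains, while H2-DMb2, H2-Oa and H2-Ob do.

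The strain difference of H2-Eb1 was larger than that of the I-A chains within the same libraries, where depth and scaling cancel. For each H2-Ab1 UMI there were 0.911 and 0.870 H2-Eb1 UMIs in CC075F1 against 0.382 and 0.370 in CC080F1, a 2.37-fold difference of means. The corresponding H2-Aa ratios were 0.871 and 0.952 in CC075F1 against 0.947 and 0.786 in CC080F1, which overlapped. The H2-Eb1 ratio hardly moved with position: the strains differed 2.35-fold in edge spots, 2.37-fold in interior spots, 2.35-fold in the spots with the fewest macrophage markers and 2.39-fold in those with the most. With 2 sections per strain an exact two-sided permutation test over sections cannot give a p below 0.33, which is the value for the H2-Eb1 ratio (0.667 for H2-Aa). The reference genome is that of C57BL/6J, so loss of reads from a CC haplotype and a lower level of its transcript cannot be told apart for any of these genes.

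**Figure D2:**
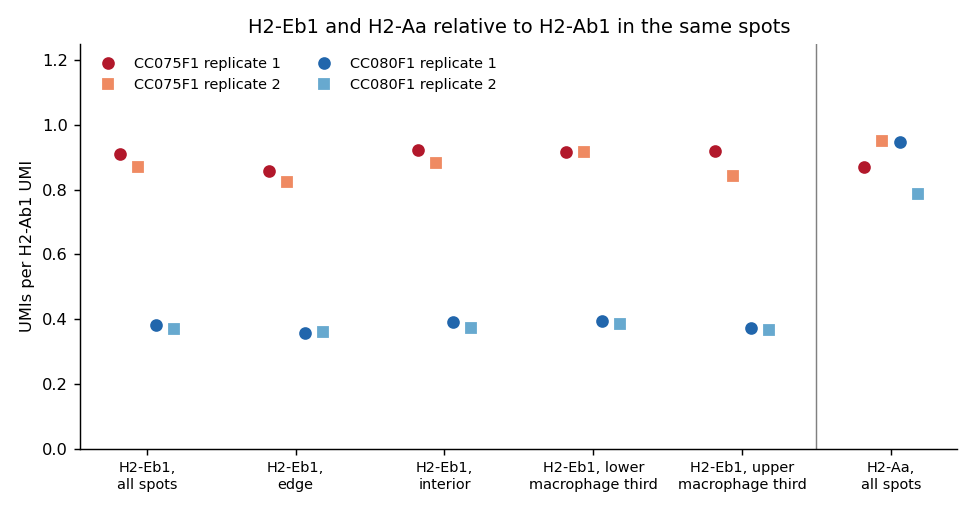
UMIs of H2-Eb1 per UMI of H2-Ab1 in all spots and in 4 subsets of spots, and of H2-Aa per UMI of H2-Ab1 in all spots (right of the line); points are sections. H2-Eb1 stays between 0.825 and 0.924 in CC075F1 and between 0.357 and 0.394 in CC080F1 in every subset, while H2-Aa overlaps between strains.

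Cd74, the invariant chain, is encoded on chromosome 18. It was measured at 2193 and 1568 CPM in CC075F1 and at 291 and 392 CPM in CC080F1. The strains were separate and their means differed 5.51-fold, with a log2 fold change of 2.74 (SE 0.388, edgeR adjusted p = 0.0778). Per H2-Ab1 UMI, Cd74 was somewhat higher in CC075F1 (2.80 and 3.23) than in CC080F1 (2.49 and 2.29), and these ratios did not overlap either (exact permutation p = 0.33).

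The peptide exchange genes differed less. H2-DMa was measured at 83.6 and 59.7 CPM in CC075F1 and at 25.8 and 34.4 CPM in CC080F1. H2-DMb1 was measured at 91.4 and 70.9 CPM in CC075F1 and at 31.9 and 34.9 CPM in CC080F1. Both were separate between strains, 2.38-fold and 2.43-fold, with log2 fold changes of 1.54 (SE 0.228, edgeR adjusted p = 0.0882) and 1.58 (SE 0.197, edgeR adjusted p = 0.0653). Relative to the chains the order turned around: H2-DMa gave 0.107 and 0.123 UMIs per H2-Ab1 UMI in CC075F1 but 0.220 and 0.202 in CC080F1. The balance of the α and β genes of H2-DM overlapped between strains, with 1.09 and 1.19 H2-DMb1 UMIs per H2-DMa UMI in CC075F1 against 1.24 and 1.01 in CC080F1.

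H2-DMb2, the other H2-DM β gene, was measured at 4.43 and 2.78 CPM in CC075F1 and at 2.17 and 3.18 CPM in CC080F1. Its strains overlapped, with a log2 fold change of 0.69 (SE 0.339, edgeR adjusted p = 0.83). H2-DMb1 and H2-DMb2 were the only pair of H2 genes among the members whose annotated exons shared stretches of 90 bases (13.2% and 12.0% of their 90-base words), so their split of reads is less certain than that of the others. H2-DMa overlaps annotated transcripts on both strands, among them Brd2 on the opposite strand.

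The H2-DO genes were close to the limit of detection. H2-Oa was measured at 0.896 and 1.03 CPM in CC075F1 and at 0.684 and 1.04 CPM in CC080F1, which is 64 to 151 UMIs in a whole section. H2-Ob was measured at 1.73 and 1.11 CPM in CC075F1 and at 1.00 and 1.14 CPM in CC080F1. Neither separated the strains, with log2 fold changes of 0.50 (SE 0.463, edgeR adjusted p = 0.838) and 0.68 (SE 0.366, edgeR adjusted p = 0.83). The B cell markers together made up 3.63 and 4.88 CPM in CC075F1 and 2.90 and 2.47 CPM in CC080F1.

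Ciita, the transactivator, was measured at 12.7 and 4.99 CPM in CC075F1 and at 2.58 and 4.41 CPM in CC080F1. The strain ranges were separate but nearly touched, and the difference of means (2.53-fold) rested on CC075F1 replicate 1. The fit gave a log2 fold change of 1.54 (SE 0.399, edgeR adjusted p = 0.471), and of 1.08 without that section.

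After TMM scaling, which takes composition into account and separates H2-DMb2 and H2-Ob as well, 9 of the 10 members, all but H2-Oa, had both CC075F1 sections above both CC080F1 sections, against 16.2% of all genes tested. The members' median log2 fold change was 1.56, and that of all genes was −0.02. Which members passed depended on the setting. DESeq2's Wald test (0.88% of genes called higher) and edgeR without the filter on low counts (1.53%) called 7, all but H2-DMb2, H2-Oa and H2-Ob. Scaling by library size called 4, the chains and Cd74 (0.141%), with the median of all genes at −0.31. Leaving out CC080F1 replicate 2 called 6 (1.07%), and leaving out CC075F1 replicate 2 (0.0438%), or only its skin, muscle or fat spots (0.0835%), called H2-Aa and H2-Eb1.

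Of 38 symbols of other pathway genes listed, 34 were matched and 33 tested. None passed the strain comparison by edgeR or by any of the alternatives, DESeq2 and limma-voom included. By edgeR 5 had an unadjusted p under 0.05, all higher in CC075F1, against 846 of 15572 genes in either direction. The median log2 fold change of the 33 was 0.22. The largest of those 5 was Lag3, an inhibitory receptor of T cells that binds class II molecules, at 2.22 and 0.963 CPM in CC075F1 against 0.631 and 0.941 CPM in CC080F1 (log2 fold change 1.23, SE 0.446, edgeR adjusted p = 0.80). Ctss, the protease that trims the invariant chain, was measured at 528 and 437 CPM in CC075F1 and at 341 and 376 CPM in CC080F1 (log2 fold change 0.74, SE 0.286, edgeR adjusted p = 0.83). Ifi30, a lysosomal thiol reductase that unfolds antigens, was measured at 134 and 132 CPM against 110.0 and 111 CPM (log2 fold change 0.60, SE 0.249, edgeR adjusted p = 0.83). Rfx5, which binds the X box, overlapped between strains (13.6 and 6.07 against 13.9 and 13.001 CPM). H2-Eb2 reached 5 to 13 UMIs per section and did not pass the filter.

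The share of spots with a class II UMI was then compared at equal depth, a measure that also follows the level of a gene. Spots with at least 10000 UMIs (2549 to 3174 per section) were thinned to 10000 UMIs each, which left out 53 to 205 shallower spots per section. H2-Eb1 was then found in 99.3% and 93.6% of CC075F1 spots and in 33.2% and 41.1% of CC080F1 spots, where the exact 95% intervals were 31.48 to 35.05% and 39.31 to 42.89%. H2-Aa was found in 99.3% and 93.4% against 56.5% and 61.1%, and H2-Ab1 in 99.3% and 94.2% against 58.0% and 66.1%. Cd74 was found in 100% and 99.6% of CC075F1 spots and in 83.6% and 83.9% of CC080F1 spots. At full depth the H2-Eb1 shares were 99.3% and 99.5% against 61.9% and 70.4%, those of H2-Aa 99.4% and 99.8% against 84.6% and 86.9%, and those of H2-Ab1 99.4% and 99.7% against 86.8% and 90.1%.

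The genes of lower abundance were found in fewer spots. H2-DMa was found in 54.2% and 44.7% of CC075F1 spots and in 23.1% and 28.2% of CC080F1 spots, and H2-DMb1 in 58.5% and 50.5% against 26.7% and 28.9%. Ciita was found in 12.6% and 5.48% against 2.999% and 5.09%. H2-DMb2 was found in 2.45 to 4.35% of spots, and H2-Oa and H2-Ob in 0.768 to 1.77%, near the level of a single UMI. In all, a thinned spot held 5.30 and 4.88 of the 10 members in CC075F1 against 2.88 and 3.20 in CC080F1, a ratio of 1.67 with separate strains (exact permutation p = 0.33). This ratio fell with depth, from 2.06 at 5000 UMIs to 1.42 at 20000 and 1.27 without thinning. Every thinned spot held a UMI of a macrophage, dendritic, B cell or plasmacytoid marker, so no class of spots could serve as a background for free RNA. The intervals cover counting error only.

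Markers of the cells that carry class II also differed between the sections of the strains, by less. The 10 macrophage markers summed to 2554 and 2552 CPM in CC075F1 and to 1694 and 1933 CPM in CC080F1, a 1.41-fold difference of means. Most of this sum came from the C1q genes in every section. C1qa, C1qb and C1qc were at 681, 818 and 576 CPM in CC075F1 replicate 1 and at 435, 488 and 371 CPM in CC080F1 replicate 1. The strain difference lay in C1qa, C1qb, C1qc and Fcgr1 (1.41-fold to 2.21-fold), whereas Csf1r and Mertk overlapped between strains. For other markers the scaling mattered: Adgre1 and Cd68 overlapped in CPM but were higher in both CC075F1 sections after TMM scaling, and Itgam, at 21.6 and 21.6 CPM against 35.0 and 30.4 CPM, overlapped after it. The 7 dendritic markers overlapped in CPM (22.0 and 14.6 against 14.3 and 16.1) and were separate after TMM scaling (20.4 and 19.6 against 12.3 and 15.1), with Batf3, Xcr1 and Clec9a higher in both CC075F1 sections and Cd209a, Flt3 and Zbtb46 higher in both CC080F1 sections. T cell markers were at 36.9 and 32.5 against 12.0 and 11.04 CPM, and the plasmacytoid dendritic markers at 0.121 to 0.497 CPM in all sections. The part of these cell types in the class II difference was not tested beyond the ratios that follow.

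Per macrophage-marker UMI, the summed core genes H2-Aa, H2-Ab1, H2-Eb1 and Cd74 gave 1.71 and 1.15 UMIs in CC075F1 against 0.3329 and 0.393 in CC080F1, a 3.95-fold difference. The strains stayed separate with every denominator tried, at 3.73-fold per C1q UMI, 4.99-fold per UMI of the 7 markers other than C1q, 5.64-fold per UMI of Adgre1, Itgam and Cd68, 3.08-fold per UMI of those 3 with Cxcl9, the study's 4 macrophage markers, and 5.27-fold per UMI of the leukocyte gene Ptprc. Among the other members, H2-DMa (1.70-fold) and H2-DMb1 (1.73-fold) also stayed separate per UMI of the 10 macrophage markers. Ciita (1.82-fold), H2-DMb2 (0.966-fold), H2-Oa (0.802-fold) and H2-Ob (0.941-fold) overlapped between strains on that scale. The p of 0.33 is the lowest that 2 against 2 sections allow.

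Within sections the core genes varied together from spot to spot. The median of their 6 pairwise Spearman correlations across thinned spots was 0.499 and 0.702 in CC075F1 against 0.396 and 0.513 in CC080F1. The strains overlapped, and CC080F1 spots held fewer core UMIs, which by itself lowers such correlations. Within the spots with the most macrophage markers the median was 0.498 and 0.573 in CC075F1 against 0.409 and 0.536 in CC080F1. Spots of a section share a library, and the value over all thinned spots was higher at 20000 UMIs in every section (0.672 and 0.800 in CC075F1 against 0.521 and 0.6505 in CC080F1). The summed core was also spatially clustered, with a Moran's I over the 6 nearest positions of 0.383 and 0.759 in CC075F1 against 0.602 and 0.626 in CC080F1. That of H2-Oa and H2-Ob was between −0.002 and 0.025. A spot held a median of 43 and 31 core UMIs per 10000 in CC075F1 against 4 and 5 in CC080F1, and 6.69% and 6.80% of CC080F1 spots but none of the CC075F1 spots held 0. In CC080F1 the richest 10% of spots held 32.6% and 33.0% of the core UMIs, in CC075F1 17.0% and 22.7%. At the few core UMIs per spot of CC080F1 counting error by itself raises such a share, and its part was not tested.

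**Figure D3:**
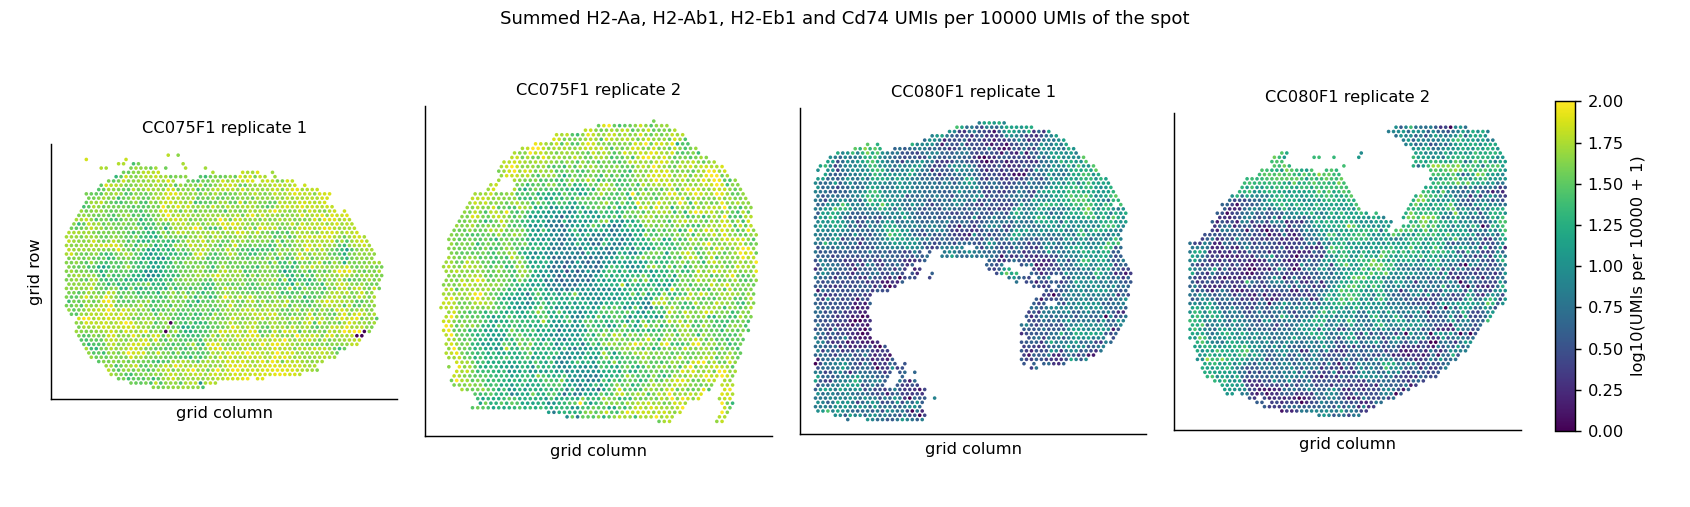
Spots of the 4 sections at their grid positions, colored by the summed H2-Aa, H2-Ab1, H2-Eb1 and Cd74 UMIs per 10000 UMIs of the spot (log10 of the value plus 1; the color scale ends at 2). Both CC075F1 sections are bright almost throughout with a darker centre in replicate 2, and both CC080F1 sections are dim with brighter patches.

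Among 7022 genes with a UMI in at least 10% of thinned spots of each section, those most like the summed core across spots were Cxcl9, Psap, Lyz2, AW112010, Ly6a, Ccl8, Apoe, Tmsb4x, C1qb and C1qa. Their mean Spearman correlations over the 4 sections ran from 0.423 for Cxcl9, an IFN-γ-induced chemokine, to 0.299 for C1qa, against a median of 0.014 over all genes ranked. H2-DMa (0.255) and H2-DMb1 (0.243) ranked 20 and 25 in the same list. The macrophage markers did not rank alike: Csf1r was at 77 (0.163), Adgre1 at 996 (0.042), Cd68 at 2427 (0.023) and Itgam at 5184 (0.000). These are descriptions over spots, which are not independent.

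Toward the tissue edge the summed core was somewhat higher in 3 of the 4 sections, and no member passed the test. Edge spots lay at most 3 grid steps from a position off tissue (568 and 665 spots in CC075F1, 880 and 648 in CC080F1). The edge to interior ratio of the summed core was 1.23 and 1.64 in CC075F1 against 0.860 and 1.32 in CC080F1. CC080F1 replicate 1 was the section in which the edge was lower. H2-DMb2, H2-Oa and Ciita were higher at the edge in all 4 sections, and H2-Ob was lower in all 4 (0.859 and 0.941 in CC075F1 against 0.934 and 0.981 in CC080F1). The largest log2 fold changes were those of H2-DMb2 (0.63, SE 0.152, edgeR adjusted p = 0.0926), Ciita (0.50, SE 0.129, edgeR adjusted p = 0.107) and H2-Ab1 (0.40, SE 0.1203, edgeR adjusted p = 0.151). Of the 10 members 6 had an unadjusted p under 0.05, against 2765 of 15089 genes. In the same fit 166 genes passed (1.1%). Without CC080F1 replicate 1, 7 members passed, all but Cd74, H2-Oa and H2-Ob, with 5.26% of genes called higher. The macrophage markers had edge to interior ratios of 1.08 and 1.33 in CC075F1 against 0.899 and 0.919 in CC080F1, and the dendritic markers of 1.34 and 2.02 in CC075F1 against 0.934 and 1.24 in CC080F1.

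Of the 34 pathway genes tested none passed at the edge (edgeR, 8 with an unadjusted p under 0.05, against 2765 of 15089 genes). By distance, the summed core went from 5245 CPM in the outermost spots to 3639 CPM beyond 10 steps in CC075F1 replicate 1 and from 4571 to 2136 CPM in CC075F1 replicate 2. In CC080F1 replicate 2 it was 869 CPM outermost, 998 CPM at 2 steps and 582 CPM beyond 10 steps. CC080F1 replicate 1 had no such slope, with values between 449 and 622 CPM. H2-Ab1 alone went from 1136 to 587 CPM and from 919 to 335 CPM in CC075F1. Edge spots were shallower than interior spots, and at every distance the lowest CC075F1 value exceeded the highest CC080F1 value. In the test of a different edge effect between strains 2 members had an unadjusted p under 0.05 by edgeR, H2-DMa and H2-DMb1, against 1283 of 15089 genes. No member passed this test, against 16 of 15089 genes (0.106%). Without CC080F1 replicate 2, H2-Eb1, H2-DMa and H2-DMb1 passed it, with a higher edge ratio in CC075F1 (2.47% of genes higher).

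**Figure D4:**
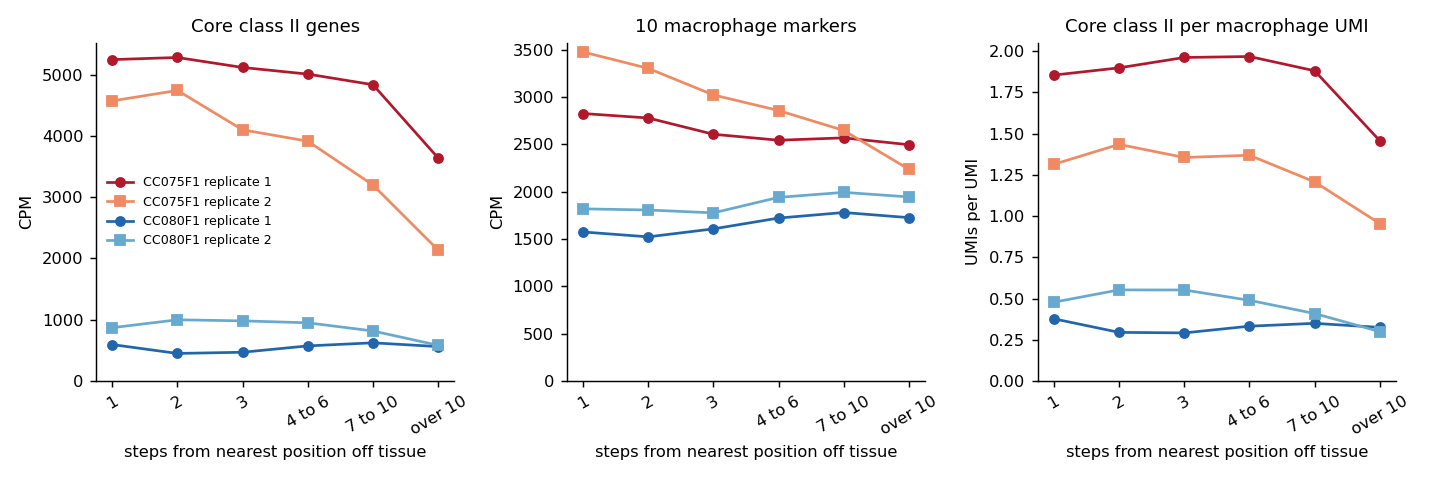
Summed core class II genes (left, CPM), 10 macrophage markers (middle, CPM) and core UMIs per macrophage-marker UMI (right) by distance in grid steps from the nearest position off tissue, one line per section. The core is lower toward the centre in both CC075F1 sections and in CC080F1 replicate 2 beyond 6 steps, and stays between 449 and 622 CPM in CC080F1 replicate 1.

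Spots rich in macrophage markers held more transcripts of 5 members, and how many more depended on the markers that ranked the spots. Within each section, thinned spots were ranked by their UMIs of the 10 macrophage markers and divided into 3 groups of equal number, called macrophage-rich, middle and macrophage-poor, and the rich spots were compared with the poor. The summed core was higher in the macrophage-rich spots of every section, with ratios of 1.39 and 2.63 in CC075F1 against 1.51 and 2.18 in CC080F1. Of the members 5 rose: H2-Ab1 by 0.80 (log2, SE 0.129, edgeR adjusted p = 0.038), H2-Aa by 0.77 (SE 0.110, adjusted p = 0.0301), Cd74 by 0.77 (SE 0.112, adjusted p = 0.0309), H2-Eb1 by 0.74 (SE 0.116, adjusted p = 0.0366) and H2-DMa by 0.73 (SE 0.111, adjusted p = 0.0345). Over all genes 336 of 14429 passed (2.33%), 316 of them higher (2.19%). Ciita (0.86, edgeR adjusted p = 0.0761) and H2-DMb1 (0.56, edgeR adjusted p = 0.076) did not pass. In the same comparison 6 of 33 pathway genes tested rose, among them the proteases Ctss (0.58) and Lgmn (0.39), Ifi30 (0.54), the maturation marker Cd83 (0.46) and the transcription factor Spi1 (0.50).

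Ranked by C1qa, C1qb and C1qc alone, the core ratios were 1.40 and 2.61 in CC075F1 against 1.48 and 2.12 in CC080F1, and the same 5 members passed (1.68% of genes higher). The C1q genes held most UMIs of the 10 markers, so this ranking and the first share most of their counts. Ranked by the 7 other markers they were 1.14 and 1.77 in CC075F1 against 1.19 and 1.45 in CC080F1, and Cd74 alone passed (1.01%). Ranked by Adgre1, Itgam and Cd68, 3 of the 4 macrophage markers of the study, they were 1.02 and 1.23 in CC075F1 against 1.02 and 1.09 in CC080F1. No member passed in this split (edgeR, 5 with an unadjusted p under 0.05, against 1656 of 14421 genes). Adgre1, Itgam and Cd68 rose 1.69-fold to 1.92-fold in that split, which follows from their having ranked the spots. Each was at 21.6 to 109 CPM in a section, few UMIs in a thinned spot, and ties were broken at random. The part of counting error in the low core ratios of that split was not tested. With Cxcl9 added, the study's full set, the core ratios were 1.44 and 2.09 in CC075F1 against 1.43 and 2.24 in CC080F1, and 8 members passed, all but H2-Oa and H2-Ob (4.79% of genes higher). Cxcl9, which helped to rank the spots, rose 3.36-fold to 6.45-fold in that split, and it was the gene most like the summed core across spots. The dendritic markers (1.37-fold to 2.30-fold) and T cell markers (1.21-fold to 2.79-fold) rose with the 10 macrophage markers in every section, and macrophage-poor spots of CC075F1 replicate 2 were deeper (median 53266 UMIs) than its macrophage-rich spots (33456 UMIs). Their part in the result was not tested. No member passed without CC075F1 replicate 1, without either CC080F1 section or under scaling by library size. In these settings 8 or 9 members had an unadjusted p under 0.05, against 1741 to 3511 of 14084 to 14429 genes. The members' median log2 fold change was then 0.68 to 0.86. No gene, and so no member, passed a test of a different macrophage effect between strains (edgeR, 365 of 14429 genes with an unadjusted p under 0.05, no member among them).

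**Figure D5:**
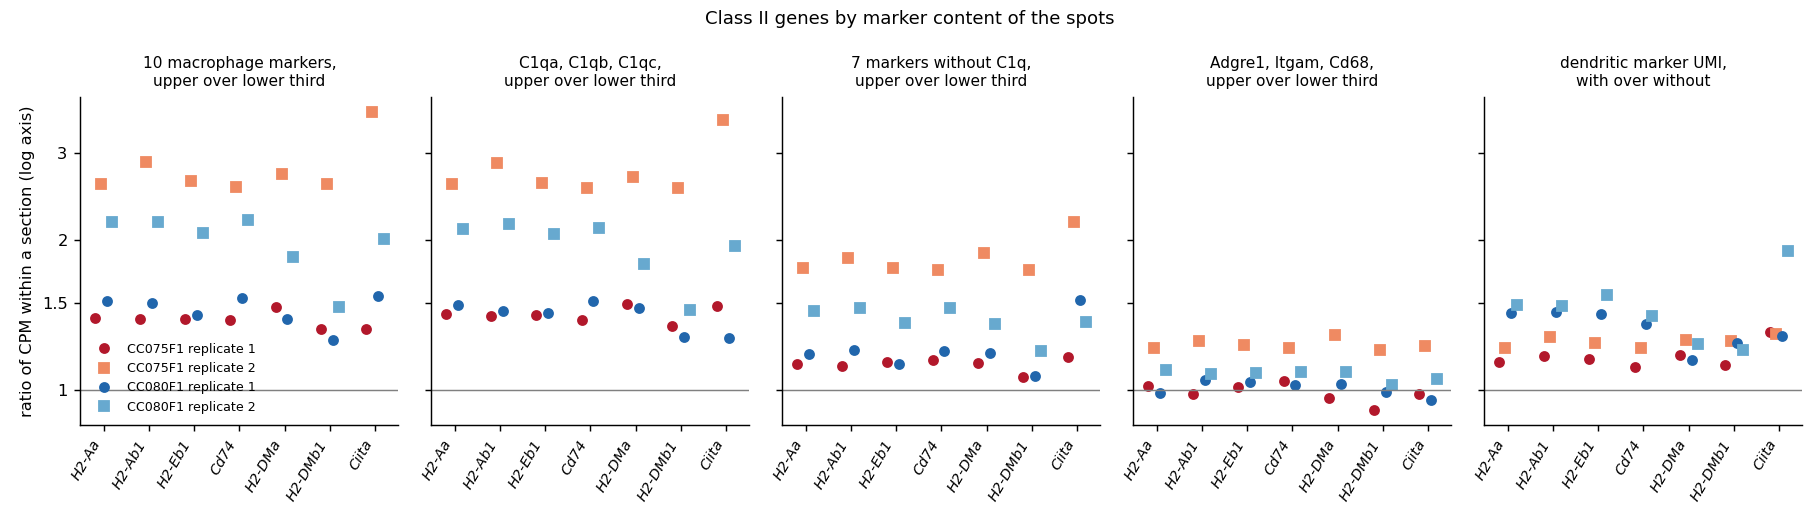
Ratio of CPM within a section for 7 class II genes, on a log axis: macrophage-rich over macrophage-poor spots by 4 sets of macrophage markers (4 panels) and spots with over spots without a dendritic marker UMI (right); points are sections and the grey line marks 1. The ratios of the summed core, which is not plotted, reach 2.63 when the 10 macrophage markers, C1q genes included, rank the spots. They stay at or below 1.23 with Adgre1, Itgam and Cd68. For dendritic markers they are higher in both CC080F1 sections than in both CC075F1 sections.

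Class II genes were also higher in spots with a dendritic marker. At 10000 UMIs, 20.2% and 14.9% of CC075F1 spots and 13.3% and 15.2% of CC080F1 spots held a UMI of Flt3, Zbtb46, Batf3, Xcr1, Clec9a, Cd209a or Ccl22. In these spots 7 members rose by edgeR: Ciita by 0.46 (log2, SE 0.0889, adjusted p = 0.000448), H2-Ab1 by 0.34 (SE 0.0312, adjusted p = 1.72e-10), H2-Aa by 0.31, H2-Eb1 by 0.30, Cd74 by 0.28, H2-DMa by 0.23 and H2-DMb1 by 0.21. The gene with the largest of these changes was thus the transactivator. In all, 1112 of 14885 genes passed (7.47%), 631 of them higher (4.24%). With library-size scaling 1023 of 1212 genes called were higher. The same 7 members passed with any section left out and within the macrophage-rich spots alone (2.02% of genes higher there), while within the macrophage-poor spots the 4 core genes passed (0.212%). Of 33 pathway genes 9 rose, led by Irf4 (0.94), a transcription factor of dendritic cells, with Cd83 (0.24), Irf8 (0.18), Ifi30 (0.17), Spi1 (0.15), Socs1 (0.13), Irf1 (0.08) and Ctss (0.08) among the others, and Ctsl and Cd63 fell by 0.09 and 0.07. Macrophage markers were 1.05-fold to 1.14-fold and T cell markers 1.17-fold to 1.72-fold higher in the dendritic-marked spots, and their part was not tested.

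As a ratio, the rise of the core genes with dendritic markers was smaller in CC075F1. With and without a marker UMI, H2-Eb1 was at 799 and 692 CPM in CC075F1 replicate 1, at 506 and 407 CPM in CC075F1 replicate 2, at 60.1 and 42.3 CPM in CC080F1 replicate 1 and at 89.9 and 57.9 CPM in CC080F1 replicate 2. These are ratios of 1.15 and 1.24 in CC075F1 and of 1.42 and 1.55 in CC080F1, which did not overlap. The summed core gave ratios of 1.13 and 1.23 against 1.39 and 1.45. In CPM, however, H2-Eb1 rose by more in both CC075F1 sections, where its level without a marker UMI was already several times higher. In the test of the difference between strains, 4 members passed by edgeR: H2-Eb1 (−0.35, SE 0.0566, adjusted p = 1.12e-05), H2-Aa (−0.34, SE 0.0501, adjusted p = 8.29e-07), H2-Ab1 (−0.28, SE 0.05003, adjusted p = 0.000158) and Cd74 (−0.27, SE 0.0531, adjusted p = 0.000691). Over all genes 27 passed (0.181%), 10 of them in this direction (0.0672%). H2-DMa and H2-DMb1 did not pass (−0.00 and −0.06). Without CC080F1 replicate 1 H2-Aa and H2-Eb1 passed (0.105% of genes in this direction), and without CC080F1 replicate 2 none did (5 members with an unadjusted p under 0.05), with log2 differences of −0.25 to −0.40 for the 4 genes whichever section was left out. With Batf3 and Zbtb46 as the only dendritic markers, H2-Ab1 did not pass (−0.13, edgeR adjusted p = 0.796) and Cd74 was at −0.17 (adjusted p = 0.0197). The mix of markers differed between strains. Batf3 was at 9.15 and 7.31 CPM in CC075F1 against 3.14 and 3.92 CPM in CC080F1, and Zbtb46 at 8.05 and 4.84 CPM against 8.92 and 8.28 CPM. The part of this mix in the result was not tested.

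In the macrophage-rich spots the strain difference was close to that of whole sections. These spots were ranked within each section, so their marker content was not matched between strains. They held a median of 33 and 38 macrophage-marker UMIs per 10000 in CC075F1 against 22 and 26 in CC080F1. H2-Eb1 was at 844 and 659 CPM in CC075F1 and at 52.1 and 86.3 CPM in CC080F1, with a log2 fold change of 3.68 (SE 0.357, edgeR adjusted p = 0.0495). It was the member called, against 4 of 14145 genes called higher (0.0283%) and 8 called in all (0.0566%). H2-Aa (2.52, edgeR adjusted p = 0.093), Cd74 (2.74, adjusted p = 0.124) and H2-Ab1 (2.43, adjusted p = 0.15) did not pass. In the macrophage-poor spots H2-Eb1 had a log2 fold change of 3.68 as well, with 606 and 250.05 CPM in CC075F1 against 36.9 and 41.7 CPM in CC080F1, and was again the member called (0.0289% of genes higher). In the macrophage-rich spots by the study's 4 markers no member passed (H2-Eb1 3.57, edgeR adjusted p = 0.0568). Of the members 8 had an unadjusted p under 0.05 there, against 762 of 14090 genes. Leaving out CC075F1 replicate 2 or CC080F1 replicate 1 left no member past the threshold (lowest edgeR adjusted p = 0.101 and 0.0531, 7 with an unadjusted p under 0.05 in both), and leaving out CC075F1 replicate 1 or CC080F1 replicate 2 called 6 (2.23% and 0.977% of genes higher).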

How the data were processed

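Visium spatial libraries of 4 fresh frozen MC38 tumor sections were analysed. The authors ran Space Ranger 1.3.1 with the mm10 (GRCm38) reference, and what they deposited are unnormalized UMI counts for each gene in each spot under tissue. Their later steps in Seurat 5.0.1 were not repeated, since spots are not replicates. Grid positions came from the deposited position lists and gene coordinates from GENCODE vM21 (GRCm38).

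UMIs were summed over each section, or over groups of its spots, and all genes were fitted by the quasi-likelihood F test of edgeR 4.0.16 under R 4.3.3, after filterByExpr and TMM scaling. Strain fits had strain as the only term and within-section fits had the section as a term. Marker genes that split the spots were left out of the genes tested. P-values were adjusted by Benjamini-Hochberg (threshold 0.05). Those of strain fits measure the spread between 2 tumors per strain. Those of within-section fits measure how the ratio between spot groups of a section varied over the sections, not the spread of levels between tumors. DESeq2 1.42.0 and limma 3.58.1 were alternatives, and single values were compared by exact two-sided permutation. Intervals on shares are exact (Clopper-Pearson) at 95%. The fits were tested on simulated data. Distance is the number of grid steps to the nearest position off tissue. Spots were not split by cell type or deconvolved.

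The 10 members, the pathway and marker lists, the tests and their alternatives were chosen with earlier results of these data known. Named genes are the members, pathway genes past the threshold or chosen for their role, and the 10 other genes most like the summed core. The splits by C1q or with Cxcl9 and the alternatives of the test of strain by dendritic markers were added after the data were seen. A few genes of the pathway and marker lists are not reported singly here.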

Additional observations from a re-analysis of the deposited data

Results flagged for a closer look

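The effect of dendritic markers differed between strains for 4 members, by a test of the difference itself. The log2 difference (CC075F1 minus CC080F1 in the rise of spots with a dendritic marker over spots without) was −0.336 for H2-Aa, −0.279 for H2-Ab1, −0.349 for H2-Eb1 and −0.275 for Cd74 (edgeR quasi-likelihood, n = 2 sections per strain). Both CC080F1 sections showed the larger rise as a ratio for each of these 4 genes. In CPM H2-Eb1 rose by more in both CC075F1 sections, which had the higher level without a marker. The mix of dendritic markers also differed between strains, and its part was not tested. With the study's markers Batf3 and Zbtb46 alone H2-Aa, H2-Eb1 and Cd74 passed, and without CC080F1 replicate 2 none passed (lowest edgeR adjusted p = 0.0553).

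H2-Oa moved in opposite directions with dendritic markers, and this difference was not past the threshold when tested (adjusted p = 1 by edgeR). Its ratio of spots with over spots without a marker was 1.32 and 1.27 in CC075F1 against 0.938 and 0.730 in CC080F1, a mean log2 difference of 0.647. The gene had 64 to 151 UMIs per section.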

How the results depend on the processing

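Of 560 single-member values under alternatives, 438 kept their direction and side of the threshold, 44 lost a call and 64 gained one. The 14 that changed sign had not passed the test: H2-Ob at an edge of 5 steps (0.00395), H2-DMb2 and H2-Ob with Adgre1, Itgam and Cd68 (−0.0252 and −0.0711), H2-Ob with these and Cxcl9, the study's 4 macrophage markers (−0.0855), H2-Ob with the 7 markers without C1q (−0.0767), H2-Oa in dendritic-marked spots with the study's 2 markers (−0.163), within macrophage-rich (−0.224) and macrophage-poor spots (−0.476) and without CC075F1 replicate 1 or 2 (−0.0619 to 0.222 with a section left out), H2-DMa in the strain by dendritic test with library size (0.0210) and without CC075F1 replicate 1 or CC080F1 replicate 2 (−0.0439 to 0.04997 with a section left out), and H2-Ob there without CC075F1 replicate 2 (−0.640 to 0.0788 with a section left out). The number of members called by strain was 4 with library size (40 genes in all against 14), 7 without the filter (480), 7 by DESeq2 (194), 2 without skin, muscle or fat spots and 1 to 6 with a section left out. With a replicate block it was 7 (287 genes in all). The numbers only name samples, and nothing in the labels ties same-numbered sections. Their deviations from the strain means were correlated at 0.165. This is a single value, since with 2 sections per strain both pairs give the same correlation. Among macrophage-rich spots the strain test called 7 with the replicate block (624 genes against 8) and 2 in the middle group (11 of 13938 genes). It called 2 with Adgre1, Itgam and Cd68 (14 of 13986 genes), 0 with the study's 4 markers (6 of 14090) and 4 with library size (17 of 14145). With a section left out the log2 fold change of H2-Eb1 in these spots was 3.33 to 4.17. At the edge 1 (H2-DMb2) was called from the outer boundary and 0 to 7 with a section left out, and for strain by edge 0 to 3 (13 of 16 genes higher, 20 of 21 with library size). In macrophage-rich spots 0 were called with Adgre1, Itgam and Cd68, 8 with the study's 4 markers, 0 with library size, 1 with the 7 markers without C1q and 0 to 7 with a section left out. With dendritic markers 4 were called within macrophage-poor spots, and 0 to 4 in the test by strain with a section left out. The ratio of members per spot was 2.06 at 5000 UMIs, 1.42 at 20000, 1.27 at full depth and 2.59 at 2 UMIs or more (1.59 to 1.77 with a section left out). The core per macrophage-marker UMI was 5.64-fold with Adgre1, Itgam and Cd68 and 5.27-fold with Ptprc (3.17 to 4.72 with a section left out), and the mean coordination of 0.527 rose to 0.661 at 20000 UMIs (0.469 to 0.571 with a section left out). The cause of these changes was not tested. Where leaving out a section left 1 in a strain, that section was assumed to vary like those of the other strain. H2-Oa and H2-Ob, at 64 to 162 UMIs per section, carried the most counting error.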
